A study of Mus musculus with 6 samples.

Results

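WAP proteins are small secreted proteins built around a whey acidic protein core, a fold held together by disulfide bonds between cysteines. Several of them block proteases at mucosal surfaces, and some also dampen inflammatory signalling or kill microbes. In the lung they are made by airway epithelium and by macrophages and neutrophils. The genes described are Wfdc17, Wfdc21, Slpi, Wfdc2 and Wfdc1, which are 5 of the 18193 genes measured, and each is read by 1 probe set. They were chosen by name with the difference between transgenic and wild-type lungs already known, so that difference is given for them as a description and without a test.

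The lungs came from C57BL/6 mice 6 to 10 weeks old. The labels call one genotype CC10-rtTA-IL13 transgenic (2 samples) and the other wildtype (4 samples), and both drank water with doxycycline at 2 mg/mL for 7 days before the left upper lobe was taken. In the transgenic animals the CC10 promoter, which is active in club cells of the airway, controls a doxycycline-responsive activator of IL13, the cytokine of type 2 inflammation, so both genotypes share the drug and differ in the transgene. Each sample was hybridised to its own Affymetrix array and is given as an RMA value on the log2 scale, where a difference of 1 is a doubling. The comparison asks what IL13 made in the airway changes in the whole lobe. In such bulk RNA, fewer cells of a type and less RNA per cell cannot be told apart.

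Array medians lay between 5.277 and 5.305, and the number of arrays limits the precision. In limma, 1534 of the 18193 genes passed as higher and 1914 as lower in transgenic lungs at a Benjamini-Hochberg adjusted p under 0.05. The probe set of Il13 itself read 4.24 and 4.09 in the transgenic and 3.72 to 4.03 in the wild-type arrays, below 4.5, the level called near the floor of the array here. Lung identity was plain from the alveolar type II markers, whose list mean was 13.05 to 13.38 in every array, and Scgb1a1, the CC10 gene, read 14.67 to 15.14. Wild-type replicate 2 had a goblet cell marker mean of 7.80 against 6.06 to 6.48 in the other wild-type arrays. Heart muscle marker means ran from 8.32 to 10.59 in wild-type arrays, highest in replicate 4, and were 7.57 and 5.15 in transgenic replicates 1 and 2.

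The values of 3 of the 5 WAP genes, Wfdc17, Wfdc21 and Slpi, were higher in both transgenic arrays than in all wild-type arrays. This order was seen in 19.7% of all genes tested, and nothing is read from the count, since the genes were picked with it known. Wfdc2 and Wfdc1 overlapped between the genotypes, with slightly lower transgenic means. None of the 5 was lower in both transgenic arrays than in all wild-type arrays, against 22% of all genes. All 5 passed a filter for values that reach 6 on 2 or more arrays, as did 59.5% of all genes, and each did so within wild-type arrays alone.

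**Figure D1:**
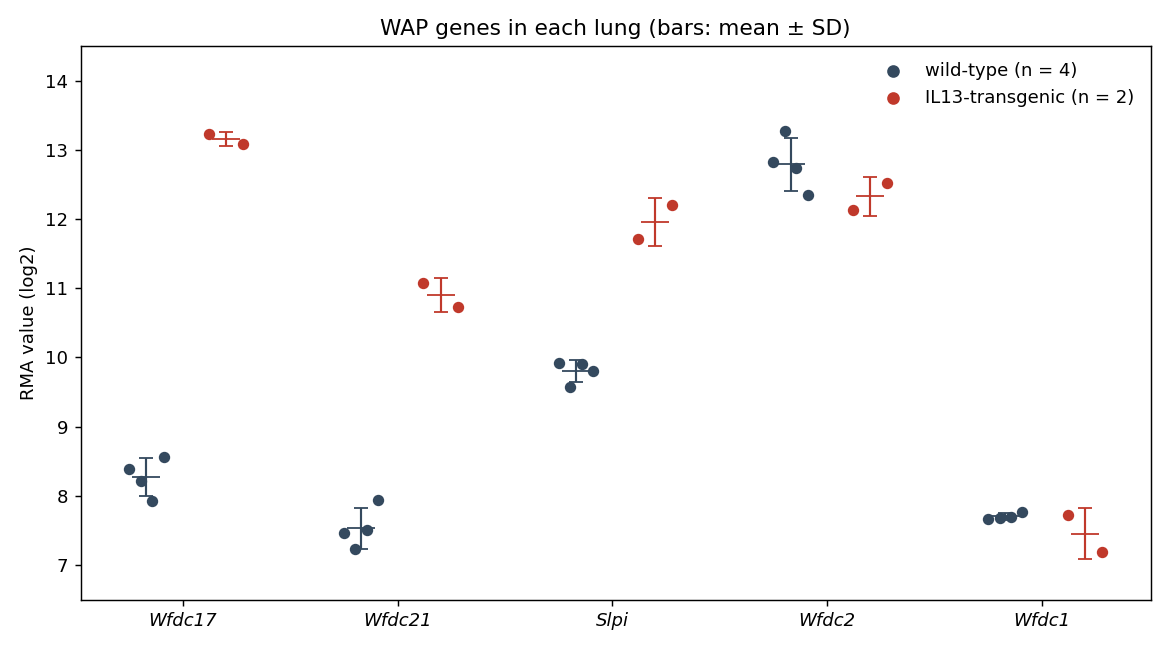
RMA values (log2, y axis) of the 5 WAP genes in the 4 wild-type and 2 IL13-transgenic arrays, 1 point per array, with the mean and SD of each genotype. Wfdc17, Wfdc21 and Slpi do not overlap between genotypes, with means of 8.27 and 13.16 for Wfdc17, and Wfdc2 and Wfdc1 do.

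Wfdc17 encodes a protein of activated macrophages and microglia, known in mouse cells to restrain inflammatory responses. Its log2 value was 13.23 and 13.09 in transgenic replicates 1 and 2, and 8.39, 8.21, 7.93 and 8.56 in wild-type replicates 1 to 4. The lowest transgenic value exceeded the highest wild-type value by 4.53, while the wild-type arrays spanned 0.63. The difference of means was 4.89 ± 0.17 (moderated SE, n = 2 and 4), or 29.6-fold, and ranked 12 of 18193 among rises. Values of 13 or more may be compressed on such arrays, so the transgenic level may be understated.

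Wfdc21 encodes a small secreted protein first named as a relative of the mammary protein WDNM1, and it lies close to Wfdc17 on chromosome 11. Wild-type replicates 1 to 4 read 7.46, 7.23, 7.50 and 7.94, and the transgenic pair 11.08 and 10.73. The groups were 2.79 apart at their nearest values. The difference was 3.37 ± 0.20 (SE), or 10.3-fold, at rank 47 of 18193. Wild-type replicate 4 was the highest wild-type array for both Wfdc17 and Wfdc21.

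Slpi, the secretory leukocyte protease inhibitor, blocks neutrophil elastase and cathepsin G and is made by airway epithelium and phagocytes. Its values were 9.92, 9.57, 9.90 and 9.81 in wild-type replicates 1 to 4, against 11.71 and 12.20 in transgenic replicates 1 and 2. The genotypes were separated by 1.80 at their nearest values, and the 2 transgenic arrays were 0.49 apart, more than the 0.35 spanned by the 4 wild-type arrays. The difference was 2.16 ± 0.17 (SE), or 4.46-fold, at rank 150. Transgenic replicate 1 was the higher of its pair for Wfdc17 and Wfdc21, and transgenic replicate 2 for Slpi.

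Wfdc2, also called HE4, is a secreted WAP protein of airway and reproductive epithelium. Transgenic replicates 1 and 2 read 12.13 and 12.52, and wild-type replicates 1 to 4 read 12.82, 13.27, 12.74 and 12.34. Transgenic replicate 2 lay above wild-type replicate 4, so the groups overlapped. The difference was -0.47 ± 0.24 (SE), beside a wild-type SD of 0.38. Wfdc2 is the gene with the widest wild-type range of the 5, at 0.93.

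Wfdc1, a WAP protein first described in prostate stroma as a growth inhibitor, had values of 7.72 and 7.19 in transgenic lungs, beside 7.67, 7.68, 7.69 and 7.77 in wild-type lungs. Transgenic replicate 1 lay within the wild-type range and transgenic replicate 2 below it. The difference was -0.24 ± 0.15 (SE), and without transgenic replicate 2 it was 0.02. The 2 transgenic arrays were thus 0.53 apart, against a wild-type range of 0.10. In the authors' deposited table the log2 fold changes of Wfdc17, Wfdc21, Slpi, Wfdc2 and Wfdc1 are 4.89, 3.37, 2.16, -0.47 and -0.24.

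Of 18 further genes of the WAP family, 11 were measured, and these were not among the chosen genes, so they were tested. In limma 2 passed as higher, 1 as lower and 8 did not pass, beside 8.43% higher and 10.5% lower of all genes, and the list's median difference was 0.09 against 0.00 over all genes. Wfdc18, the mammary proteinase inhibitor gene once called Expi, rose by 2.19 ± 0.15, from 4.79, 4.62, 4.60 and 4.55 in the wild-type arrays to 7.08 and 6.58 (adjusted p = 5.8e-05). Its probe set is of a type whose probes can match several transcripts, and Wfdc17 and Wfdc21 are relatives next to it, so its signal may in part be theirs.

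Wfikkn1, whose product binds myostatin, rose by 0.52 ± 0.11 (limma adjusted p = 0.015) from a wild-type mean near the floor, and this call ended without transgenic replicate 1 (adjusted p = 0.13). Wfdc6a, of which little is known, fell by 0.94 (SE 0.26, limma adjusted p = 0.037), from 5.75 to 6.61 in wild-type arrays to 5.52 and 4.88. That call ended without transgenic replicate 1 or 2 (adjusted p = 0.057 and 0.26) and without wild-type replicate 1 or 3 (0.087 and 0.054). The 8 that did not pass differed by -0.10 to 0.53, and for 5 of them, Wap, Wfdc5, Wfdc15a, Wfdc15b and Eppin, both group means were near the floor.

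**Figure D2:**
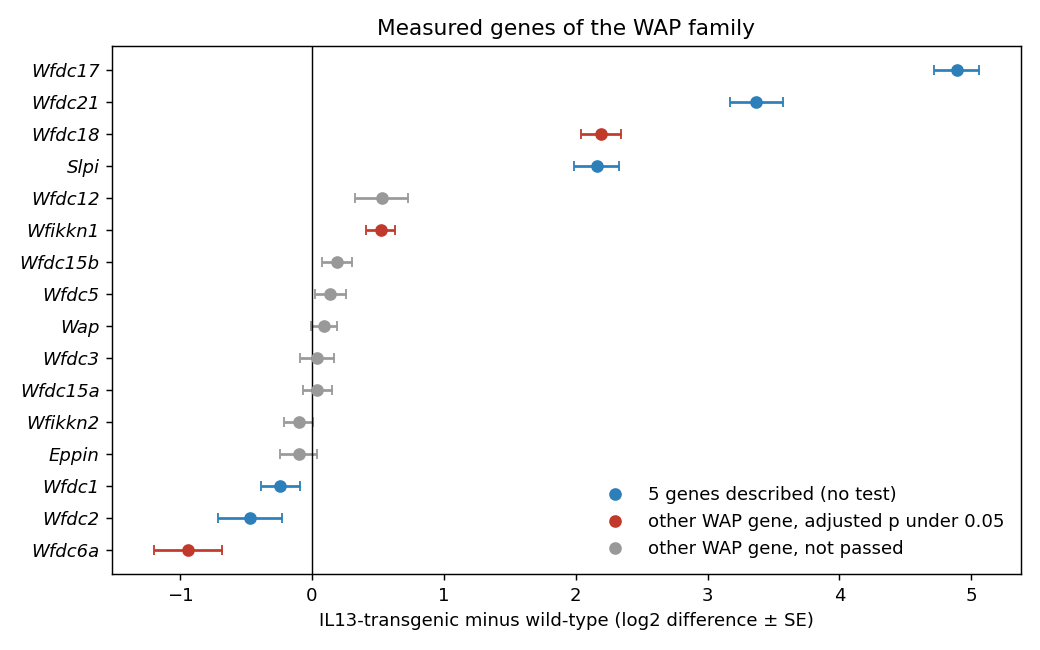
Difference between IL13-transgenic and wild-type lungs (log2, x axis, with the moderated SE) for the 16 measured WAP genes. Wfdc17 (4.89), Wfdc21 (3.37), Wfdc18 (2.19) and Slpi (2.16) stand to the right of all others, whose differences lie between -0.94 and 0.53.

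Many WAP genes lie in clusters, though Wfdc1 on chromosome 8 has no other WAP gene among the 5 nearest measured genes on each side. The stretches before the starts of some WAP genes can be compared. The RefSeq promoter table (GRCm38.p6) held 3 of the 5 genes, Wfdc17, Slpi and Wfdc2, to which Wfdc18 is added because it is the next measured gene along from Wfdc17 and passed the test. The 250 bases before each annotated start are printed 5′ to 3′, with matches to the motifs named after them in capitals. They are chr11:83703806-83704055 and chr11:83708754-83709003 on the plus strand, chr2:164356508-164356757 on the minus strand and chr2:164562465-164562714 on the plus strand.
Wfdc17: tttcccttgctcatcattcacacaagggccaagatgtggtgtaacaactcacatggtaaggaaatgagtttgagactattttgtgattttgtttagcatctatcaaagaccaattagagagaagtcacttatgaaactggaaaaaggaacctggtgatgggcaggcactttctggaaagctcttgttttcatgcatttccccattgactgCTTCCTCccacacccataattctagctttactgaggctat
Wfdc18: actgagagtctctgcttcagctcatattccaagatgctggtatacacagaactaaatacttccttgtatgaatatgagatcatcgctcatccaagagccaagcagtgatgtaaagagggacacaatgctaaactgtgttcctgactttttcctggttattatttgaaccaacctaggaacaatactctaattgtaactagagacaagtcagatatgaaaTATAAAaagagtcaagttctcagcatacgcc
Slpi: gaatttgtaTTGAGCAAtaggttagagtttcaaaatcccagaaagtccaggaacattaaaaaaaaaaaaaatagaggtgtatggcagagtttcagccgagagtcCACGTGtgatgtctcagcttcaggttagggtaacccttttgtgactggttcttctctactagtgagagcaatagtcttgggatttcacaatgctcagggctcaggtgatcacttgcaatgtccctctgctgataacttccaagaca
Wfdc2: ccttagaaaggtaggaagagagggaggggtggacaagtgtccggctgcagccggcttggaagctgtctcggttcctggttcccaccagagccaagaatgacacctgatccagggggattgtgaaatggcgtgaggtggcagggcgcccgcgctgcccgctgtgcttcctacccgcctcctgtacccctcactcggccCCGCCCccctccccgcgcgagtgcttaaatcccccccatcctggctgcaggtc

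The Wfdc2 window had a GC content of 64.8% and 14 CpG, whereas those of Wfdc17, Wfdc18 and Slpi had 41.2%, 38.4% and 42% GC and 0, 2 and 2 CpG. The medians over 27025 promoters were 52% GC and 6 CpG. Local alignment of the promoter windows, which also include the first bases of the transcript, matched 105 bases of Wfdc17 to Wfdc18, of which 78.1% were identical. No other pair of the 4 aligned over more than 18 bases.

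Motifs were searched on both strands. Wfdc17 held 1 match to the PU.1 motif GAGGAAG, read on the minus strand and starting 40 bases before the transcript start, and 10.4% of all promoters held one. Wfdc18 held 1 TATA box, TATAAA, 31 bases before its start (13% of promoters). Slpi held 1 C/EBP motif, TTGCNNAA, and 1 E-box, CACGTG, 241 and 146 bases before its start (9.55% and 6.05% of promoters). Wfdc2 held 1 GC box, GGGCGG, 53 bases before its start (32.9%).

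No match was in any of the 4 windows for STAT6 (TTC and GAA with 4 bases between them), other STAT proteins (TTCNNNGAA), AP-1 (TGANTCA) or NF-kB (GGG and TTTCC with 2 bases between them). Such matches occur in 5.86%, 7.18%, 6.87% and 1.4% of promoters. None of the matches printed overlapped another.

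The genes around the 5 WAP genes were read in chromosome order, taking the 5 nearest measured protein-coding genes on each side, which gave 38 neighbours. In limma 7 were higher, 2 were lower and 29 did not pass, beside 8.43% higher and 10.5% lower of all genes. For 11 of the 38 both group means were near the floor. The list's median difference was -0.03 against 0.00 over all genes.

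On chromosome 11, the measured genes lie in the order Ccl5, Ccl9, Ccl6, Ccl3, Ccl4, Wfdc17, Wfdc18, Wfdc21 and Heatr6, and the 5 neighbours from Ccl9 to Wfdc18 rose. The CC chemokines that 4 of them encode attract monocytes and other leukocytes. Ccl9 rose from 8.08 to 8.44 in wild-type arrays to 12.53 and 12.60 (4.36 ± 0.13, limma adjusted p = 1.4e-06). Ccl6 rose by 2.78 ± 0.12, to transgenic values of 14.37 that may be compressed (limma adjusted p = 4.1e-06). Ccl3 rose by 4.24 ± 0.32 and Ccl4 by 1.68 ± 0.14 (limma adjusted p = 7.6e-05 and 0.00015). The wild-type mean of Ccl3 was near the floor, so its rise may be understated. All 5 calls, Wfdc18 included, held with any 1 array left out. The genes just outside did not pass, with Ccl5 at -0.57 ± 0.25 (adjusted p = 0.16) and Heatr6 at -0.02 ± 0.17 (0.95). Further out the phosphatase gene Dusp14 fell by 0.73 (SE 0.15, limma adjusted p = 0.012), a call that ended without transgenic replicate 1 (0.12).

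Around Slpi and Wfdc2 on chromosome 2, only Rbpjl and Wfdc6a passed among the neighbours. Rbpjl, a transcription factor gene of the pancreas, rose by 0.69 ± 0.16 (limma adjusted p = 0.017) and lost its call without transgenic replicate 1 or 2 (0.15 and 0.055). Wfdc6a, next to Wfdc2, is given above. The seminal vesicle genes Svs2 to Svs6 on one side of Slpi differed by -0.17 to 0.26, and none passed. Both group means of each were near the floor, so a change in them could hardly be seen. Around Wfdc1 on chromosome 8 only Cotl1, which encodes an actin-binding protein of leukocytes, passed, with a rise of 1.81 ± 0.15 (limma adjusted p = 0.00013).

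**Figure D3:**
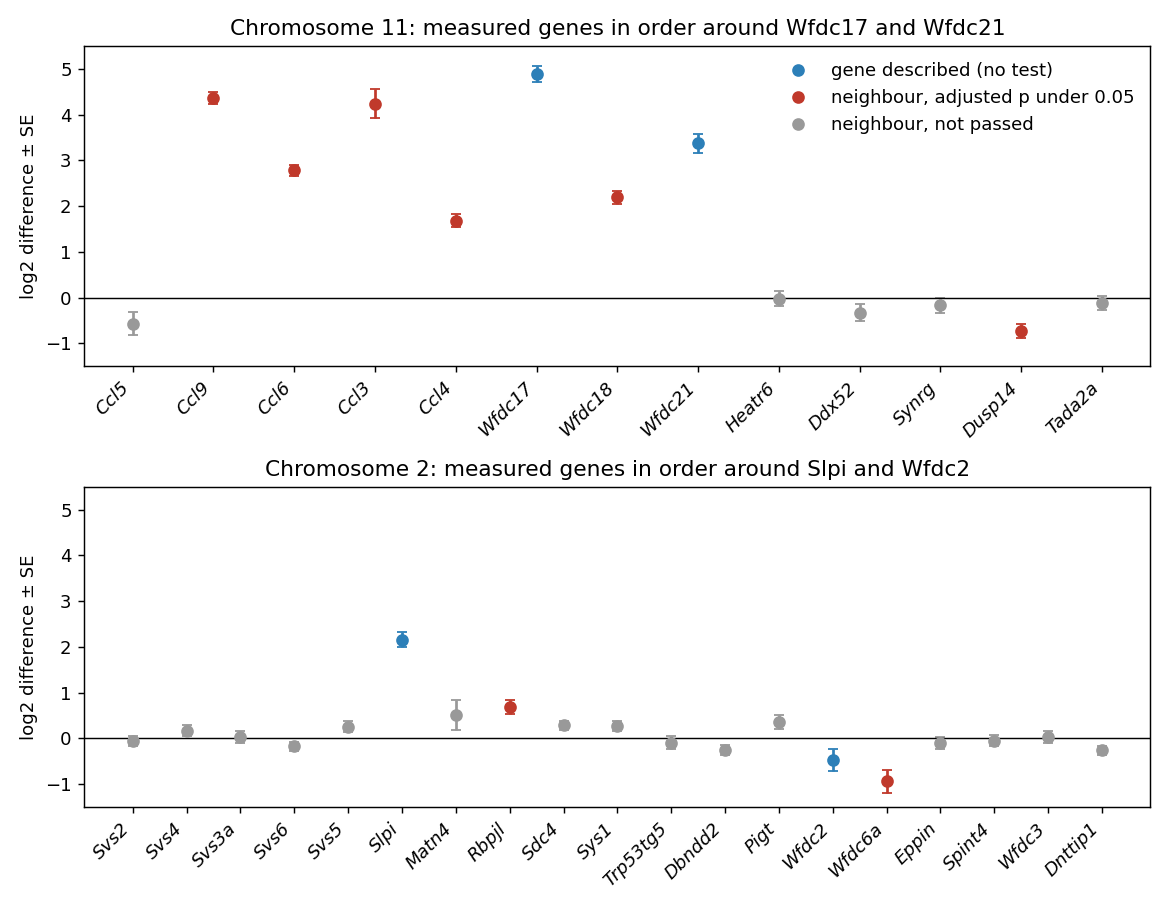
Difference between genotypes (log2, y axis, with the moderated SE) for measured genes in their order along chromosome 11 (top) and chromosome 2 (bottom), equally spaced. From Ccl9 to Wfdc21 every gene on chromosome 11 lies at 1.68 or more, and the genes on either side, Ccl5 and Heatr6, lie at -0.57 and -0.02.

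WAP inhibitors act on serine proteases, and 24 genes of such enzymes were tested. In limma 4 were higher, 1 was lower and 19 did not pass (median difference 0.16), and with all probe sets of a gene averaged 7 were higher and 0 lower. Over all genes 8.43% were higher and 10.5% lower in the main fit. Elane and Ctsg encode known targets of SLPI, and Ctsg and Prtn3 were picked for naming with their values known. Elane, neutrophil elastase, read 4.22 and 4.28 in transgenic and 3.62 to 3.84 in wild-type arrays, near the floor in both (0.55 ± 0.11, limma adjusted p = 0.011). Its call ended without transgenic replicate 1 or 2 (adjusted p = 0.068 and 0.081). Ctsg, cathepsin G, was also near the floor in both groups (0.09 ± 0.13, adjusted p = 0.70), and Prtn3, a further neutrophil protease, differed by -0.27 ± 0.16 (adjusted p = 0.27) with means of 4.97 in transgenic and 5.24 in wild-type arrays.

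The 4 largest differences past the threshold were those of Corin, Tmprss4, Cela1 and Plat. Corin, the protease that activates natriuretic peptide, rose by 4.77 ± 0.36 (limma adjusted p = 8.2e-05). Its wild-type mean was near the floor, with values of 3.80 to 5.34, so the rise may be understated. Tmprss4, a membrane protease of epithelium, rose by 1.10 ± 0.14 and Cela1, a pancreatic-type elastase, by 0.82 ± 0.11 (adjusted p = 0.0014 and 0.0015). Plat, tissue plasminogen activator, fell by 0.64 (SE 0.17, limma adjusted p = 0.036). That call ended without transgenic replicate 1 (0.26) or 2 (0.069) or wild-type replicate 1 (0.087), without wild-type replicates 2 and 4 together (0.095), after a further quantile normalization (0.051) and with probe sets averaged (0.14).

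Other antiproteases moved both ways, as did all genes, of which 8.43% were higher and 10.5% lower. Of 27 measured genes 6 were higher, 4 lower and 17 not passed in limma (median difference -0.02), and without transgenic replicate 1 the 6 were 3, and without transgenic replicate 2 the 4 were 2. Timp1, an inhibitor of matrix metalloproteinases, rose by 2.87 ± 0.30 (adjusted p = 0.00049), from 6.82 to 7.77 in wild-type arrays to 10.54 and 9.75. Itih4, an inter-alpha-trypsin inhibitor chain, rose by 2.61 ± 0.12 and Cstb, the cathepsin inhibitor cystatin B, by 1.76 ± 0.10 (limma adjusted p = 6.2e-06 and 1.8e-05). Reck, a membrane-bound inhibitor of metalloproteinases, fell by 1.51 (SE 0.14, adjusted p = 0.00026).

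Among 6 genes linked to SLPI by its known partners or by NF-kB, 3 were higher, 1 lower and 2 not passed in limma. The shares over all genes were 8.43% higher and 10.5% lower. Grn, progranulin, which SLPI shields from cleavage by elastase, rose by 1.03 ± 0.12 (adjusted p = 7e-04), from 11.73 to 11.91 in wild-type arrays to 12.76 and 12.99. Relb, an NF-kB subunit, rose by 0.98 ± 0.11 (adjusted p = 0.00078). Plscr4, a scramblase reported to bind SLPI in human cells, fell by 0.94 (SE 0.15, limma adjusted p = 0.0042). Anxa2, reported to hold SLPI at the surface of human macrophages, rose by 0.51 ± 0.12 (adjusted p = 0.019). The call of Anxa2 ended without transgenic replicate 1 or 2 (0.14 and 0.073), without wild-type replicate 1 (0.053), without wild-type replicates 2 and 4 together (0.072) and with probe sets averaged (0.074).

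Markers of macrophages and airway epithelium, which make WAP proteins, also differed, and the part of each cell type in the values above was not tested. Counts of markers stand beside 8.43% higher and 10.5% lower of all genes. Of 9 alveolar macrophage markers 7 were higher and 1 lower in limma, led by Marco (3.66 ± 0.20, adjusted p = 1.6e-05), and the list mean was 10.78 to 10.91 in transgenic and 8.79 to 9.08 in wild-type arrays. Of 9 monocyte and interstitial macrophage markers 6 were higher and 0 lower, led by Ms4a7 (3.61 ± 0.12, adjusted p = 2.2e-06), with list means of 9.27 to 9.58 and 7.52 to 7.74. The 1 lower alveolar macrophage marker was Siglecf (limma adjusted p = 0.034), whose call ended when transgenic replicate 2, or wild-type replicate 1, 3 or 4, was left out. For both macrophage lists, as for Wfdc17, Wfdc21 and Slpi, the transgenic arrays lay above all wild-type arrays. The goblet cell list (7.97 and 8.22 against 6.06 to 7.80) and the alveolar type II list (13.33 and 13.38 against 13.05 to 13.29) had the same order. Of 7 alveolar type II markers only 1 was higher and 0 lower in limma, with a median difference of 0.06. For neutrophils only Elane passed among 10 markers, and the list mean of 6.12 to 6.16 in transgenic arrays lay within the 5.74 to 6.29 of wild-type arrays. Mpo, Elane and Cxcr2 were near the floor in both groups.

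Epithelial markers moved in both directions. Of 7 club cell markers 0 were higher and 3 lower in limma, led by Scgb3a1 (-2.88 ± 0.23, adjusted p = 0.00011), with list means of 10.56 to 10.96 in transgenic and 11.45 to 12.17 in wild-type arrays. Of 10 goblet cell markers 2 were higher and 1 lower, led by the anion exchanger gene Slc26a4 (6.27 ± 0.42, adjusted p = 4.5e-05), with means of 7.97 to 8.22 and 6.06 to 7.80. The lower one was Tff2 (-1.61 ± 0.45, limma adjusted p = 0.039). Among the 7 that did not pass, the mucin gene Muc5ac differed by 0.03 ± 0.30 and Spdef by 0.05 ± 0.16. The largest difference of these 7 was that of Clca1, at 4.1 ± 1.57. Without wild-type replicate 2 the higher goblet markers were 5, and the lower one was 0 without transgenic replicate 1 or 2 or wild-type replicate 1, and with robust moderation. Slpi, made by such cells, read 9.57 in wild-type replicate 2, its lowest value, where the goblet mean was highest among wild-type arrays. Without wild-type replicates 2 and 4 together, the difference of Slpi was 2.05.

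Of 8 fibroblast and smooth muscle markers 0 were higher and 4 lower in limma, led by the contractile gene Cnn1 (-2.09 ± 0.33, adjusted p = 0.0038), with list means of 8.97 to 9.03 in transgenic and 9.38 to 9.95 in wild-type arrays. That list was low in both transgenic arrays, and Wfdc1 was low in transgenic replicate 2 (7.19) and not in replicate 1 (7.72). Heart muscle and adipocyte means were lowest in transgenic replicate 2, at 5.15 and 4.20, which was also the lowest array for Wfdc1. In wild-type arrays heart means ran from 8.32 to 10.59 and Wfdc1 from 7.67 to 7.77. A link of Wfdc1 with any of these lists was not tested. Of 6 heart markers 4 were lower and of 4 adipocyte markers 1 was lower, led by Myh6 (-3.71 ± 0.89, limma adjusted p = 0.022) and Cidec (-2.85 ± 0.47, adjusted p = 0.0047). The heart count of 4 was 1 without transgenic replicate 2, where the calls of Tnnt2, Tnni3 and Actc1 ended (limma adjusted p = 0.15, 0.22 and 0.063). It was also 1 without wild-type replicate 1, 2 without wild-type replicate 3, and 1 with robust moderation, where those of Myh6, Tnnt2 and Tnni3 ended (0.088, 0.11 and 0.099). The call of Myh6 also ended without wild-type replicate 1 (0.056) and without wild-type replicates 2 and 4 together (0.071). Leaving out transgenic replicate 1 gave 2 lower adipocyte markers, and leaving out wild-type replicate 2, or fitting the replicate block, gave 3.

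**Figure D4:**
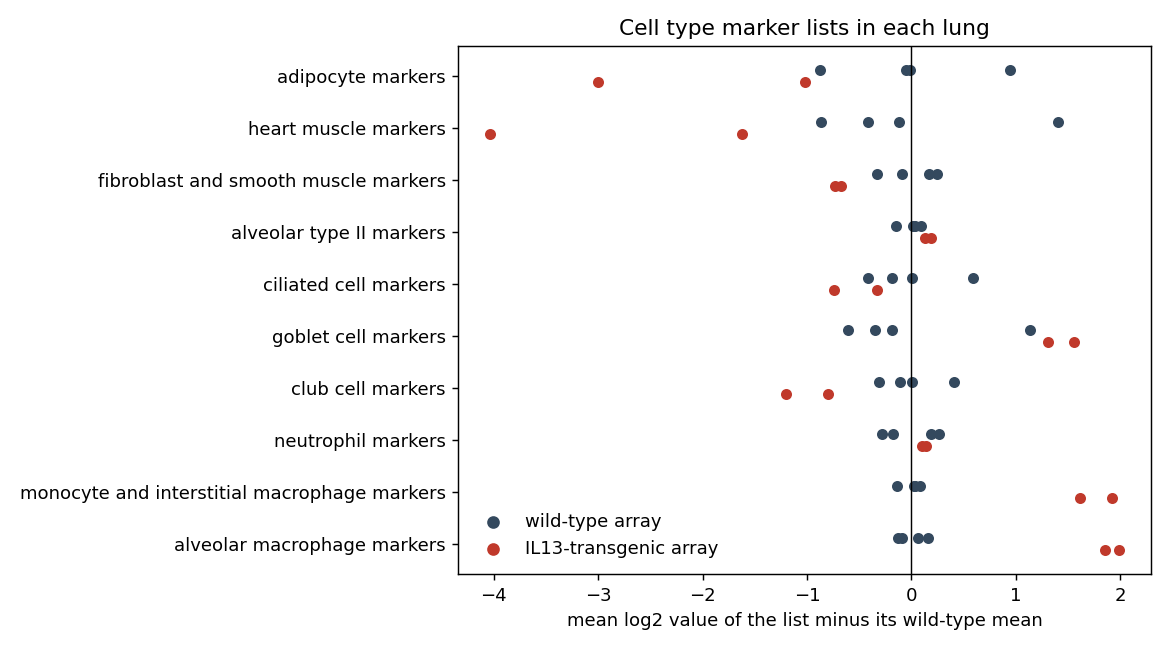
Mean log2 value of each cell type marker list in each array, relative to the mean of the 4 wild-type arrays (x axis). Transgenic arrays lie right of all wild-type arrays for both macrophage lists and for the goblet cell and alveolar type II lists. They lie left of them for club cell, fibroblast and smooth muscle, heart and adipocyte lists, and within them for neutrophil markers.

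Wfdc2 and the ciliated cell markers ordered the arrays in a similar way. Of 7 such markers 0 were higher and 2 lower in limma, led by Tppp3 (-1.14 ± 0.11, adjusted p = 3e-04). The call of the other, Ccdc39 (-0.73 ± 0.13), ended with probe sets averaged (limma adjusted p = 0.089) and without transgenic replicate 1 (difference -0.7). For these 2, unlike Wfdc2, both transgenic arrays lay below all wild-type arrays. The mean of the 7 markers was 6.40 and 6.81 in transgenic replicates 1 and 2 and 6.96, 7.73, 7.15 and 6.73 in wild-type replicates 1 to 4. For both Wfdc2 and this mean, transgenic replicate 1 was the lowest array, then wild-type replicate 4, then transgenic replicate 2, and wild-type replicate 2 was the highest. The club cell marker mean was likewise lowest in transgenic replicate 1 (10.56) and highest in wild-type replicate 2 (12.17). There transgenic replicate 2 (10.96) lay below wild-type replicate 4 (11.45), unlike for Wfdc2. The lowest and highest arrays were thus not particular to the ciliated markers. These orders describe 6 arrays that share their genotype groups.

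The genes most like each WAP gene were found by the root mean square difference of the 6 values, over the 18193 genes without the 5 WAP genes. Each value was taken relative to the gene's own wild-type mean. Genes with a similar difference between genotypes therefore come out near by construction, above all for Wfdc17, Wfdc21 and Slpi. Nearest to Wfdc2 were Slc4a5, a bicarbonate transporter gene, at 0.0612, the kinase gene Nek5 at 0.0634 and Dnaic1, which encodes a dynein of motile cilia, at 0.0767, with differences between genotypes of -0.50, -0.52 and -0.40. Nearest to Wfdc17 were Gpnmb at 0.197, Rnase2b at 0.272 and Ctsk at 0.286, genes of a macrophage glycoprotein, a ribonuclease and a cysteine protease, with differences of 4.68, 5.30 and 4.90. For Wfdc21 they were the leukocyte receptor gene Cd84 at 0.135, the transcription factor gene Tfec at 0.194 and Ms4a6d at 0.207. For Slpi they were Ttyh2 at 0.101 and the lysosomal enzyme genes Gusb at 0.125 and Lgmn at 0.131, with differences of 2.22, 2.20 and 1.96. For Wfdc1 they were Dnah17 at 0.0307, Eif4a3 at 0.0424 and the clone B830008H07Rik at 0.0477, each with a low value in transgenic replicate 2.

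**Figure D5:**
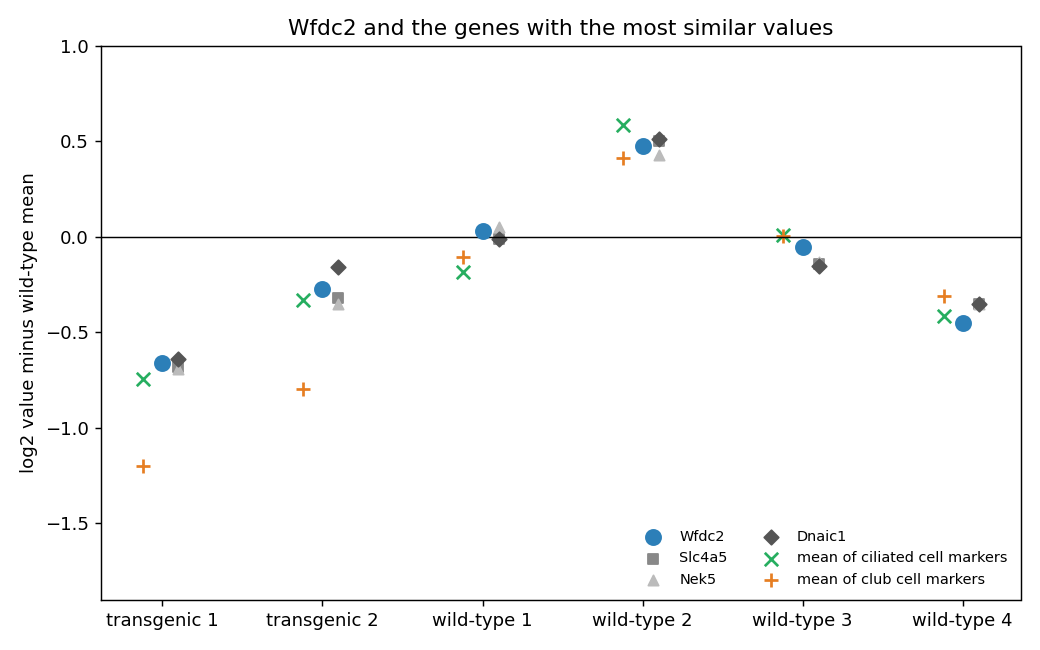
Log2 values relative to the wild-type mean (y axis) in each of the 6 arrays (x axis) for Wfdc2, its 3 most similar genes, and the means of the ciliated and club cell markers. All peak in wild-type replicate 2, and Wfdc2 and its 3 similar genes are lowest in transgenic replicate 1, where the club cell mean lies further down.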

How the data were processed

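Whole-lobe RNA of 2 IL13-transgenic and 4 wild-type mice was extracted with TRIzol and measured on 1 array each. The deposited log2 values are RMA values made by the authors, per the submitters' processing notes, with no version given, for 45037 probe sets. RMA shrinks low values and normalizes quantiles, so differences near the floor are understated. The authors' deposited table also gives a log2 fold change per probe set, and its 6 single-array columns were left out, since no sample label carries their names. Symbols were updated through Entrez IDs in RefSeq (34741 of 34945 probe sets with 1 symbol), 932 had several symbols and 9160 none, and each gene was read from its brightest probe set.

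The genotypes were contrasted by limma (version 3.58.1, R version 4.3.3, eBayes without a trend, 4 residual degrees of freedom) and adjusted over 18193 genes by Benjamini-Hochberg at 0.05, and the fit was tested on simulated data. Samples are biological replicates per the labels, and p-values measure only the spread between them. Named were the WAP genes and neighbours past the threshold and up to 4 per other list with the largest changes. The 5 genes, lists, motifs and tests were chosen with earlier results of these data known. Alternatives were other probe set summaries, renormalization, filters, moderation, array weights, blocking on the replicate number, and omitting arrays. Leaving out wild-type replicates 2 and 4 together was an alternative added once the data had been seen. Figures used matplotlib 3.10.9 and alignments Biopython 1.88, in Python 3.11.15. The counts of marker and SLPI-related genes under each alternative were added after seeing the data.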

Additional observations from a re-analysis of the deposited data

Results flagged for a closer look

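Of 54 genes, the 5 WAP genes and those named by rule, 5 had 1 wild-type array far from the other 3, where chance gives about 1 in 20. None of the 5 WAP genes was among them. In wild-type replicate 2, Slc26a4 read 7.07 against 5.39 to 5.59 elsewhere, Tff2 9.52 against 7.80 to 7.92, and Itih4 9.19 against 8.91 to 8.96. In wild-type replicate 3, Ccl3, a neighbour of Wfdc17, read 4.63 against 3.49 to 3.67. In wild-type replicate 4, Actc1 read 9.92 against 8.91 to 9.07.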

How the results depend on the processing

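The differences of Wfdc17, Wfdc21, Slpi and Wfdc2 kept their sign under all 16 alternatives run, and that of Wfdc1 under 15 of them. The filters, the intensity trend, robust moderation and probe set averaging could not change these differences, since each gene has 1 probe set and its group means stay the same. With 1 array left out the differences ran from 4.77 to 4.98 (Wfdc17), 3.20 to 3.55 (Wfdc21), 1.91 to 2.40 (Slpi), -0.66 to -0.27 (Wfdc2) and -0.51 to 0.02 (Wfdc1). The last value turned sign without transgenic replicate 2. A lone transgenic array is taken to have the wild-type spread. With 1 array left out, counts were 731 to 1578 higher and 580 to 2016 lower for all genes, 1 to 3 and 0 to 1 for other WAP genes, 3 to 4 and 0 to 1 for serine proteases, 3 to 6 and 2 to 4 for other antiproteases, and 6 to 7 and 0 to 3 for neighbours. Where only genes with at least median expression were tested, 0 other WAP genes entered, so none could pass. Of the 6 serine proteases that entered 2 were higher, and of the 19 neighbours 4 were higher and 1 lower. With a value of at least 6 in 2 arrays, only 3 other WAP genes entered, of which 1 was higher and 1 lower. With probe sets averaged, 7 serine proteases were higher and 0 lower. No serine protease (0) was lower after quantile normalization or without wild-type replicates 2 and 4 together. The cause was not tested for these. With the replicate block, in which wild-type replicates 3 and 4 have no partner and drop out, 2 serine proteases and 4 neighbours were lower, and the differences of Wfdc17, Wfdc21, Slpi, Wfdc2 and Wfdc1 were 4.86, 3.56, 2.21, -0.72 and -0.22. The deviations of same-numbered arrays correlated with r = -0.08 (number 1) and 0.27 (number 2) across genes. With 2 transgenic arrays the deviations from their mean mirror each other, so these values cannot decide whether arrays were paired. The labels do not say what a number marks, and the numbers were not taken as pairs.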
